A study of Mus musculus with 2 samples.

Results

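Cells recognise foreign RNA with a small set of receptors and pass the signal to transcription factors that switch on interferon genes. The helicases RIG-I (*Ddx58*) and MDA5 (*Ifih1*) bind viral RNA in the cytosol, the related helicase LGP2 (*Dhx58*) modulates them, and TLR3 detects double-stranded RNA in endosomes. RIG-I and MDA5 signal through MAVS on mitochondria, the kinase TBK1 then phosphorylates IRF3 and IRF7, and PKR (*Eif2ak2*) and ZBP1 are separate sensors that halt translation and can trigger cell death, respectively. In the testis, Sertoli cells carry several of these receptors, and they act there in defence against virus infection. These 10 genes (*Ddx58*, *Ifih1*, *Dhx58*, *Tlr3*, *Mavs*, *Tbk1*, *Irf3*, *Irf7*, *Eif2ak2* and *Zbp1*) were looked up by gene symbol, and all 10 were found among the 22609 gene rows. They were selected on known function at a time when the counts of the same libraries had already been seen, so that the differences below are given as descriptions and without a test.

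RNA was recovered with an antibody to Ago2, the protein that carries a miRNA to its target mRNAs, from TM4 cells, a mouse Sertoli cell line. Cells had been transfected for 48 h with a mimic of miR-471-5p or with a scramble control, and the labels name no genotype and give both groups the same medium and antibody. There was 1 library per group, with 18628310 reads on genes for mimic and 18717225 for scramble, so no difference has a replicate check and each comparison is between these 2 libraries. RNA taken before the pull-down and untransfected cells were not analysed here, and a change in mRNA abundance cannot be told apart from a change in Ago2 association, nor fewer cells with an mRNA from less of it per cell. Of 12 Sertoli cell markers, *Sox9* (1228 reads with mimic, 1070 with scramble), *Gata4* (341 and 365) and *Kitl* (12245 and 16163) were well covered, whereas *Fshr* had 0 reads in both libraries and *Amh* had 5 in each. The label of a Sertoli line was thus met only in part, and of 6 markers of peritubular and Leydig cells, *Acta2*, the smooth muscle actin gene, had 73076 and 101778 reads, the smooth muscle myosin gene *Myh11* had 6 in each library, and the other 4 had at most 11. Leukocytes express many RNA sensors, but the 8 leukocyte markers together had 39 reads with mimic and 43 with scramble, and *Ptprc*, *Itgam* and *Adgre1* had 0 in both.

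The transfected miRNA and its possible pairing sites in these genes are shown first, because Ago2 association was the quantity that the comparison of mimic with scramble was meant to measure. The mature miRNA is given from RefSeq (GRCm38.p6, chrX:66792634-66792655, minus strand), 5′ to 3′, with its seed in capitals.
mmu-miR-471-5p: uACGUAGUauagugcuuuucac
The mRNA sequence that pairs with the whole seed is ACTACGT, and the shorter 6mer match is CTACGT. Neither the 7mer nor its 8mer extension ACTACGTA occurred in the longest annotated 3′-UTR or the longest coding region of any of the 10 genes (GENCODE M21 transcripts, matched by symbol). Among all genes with at least 20 reads over both libraries, the 7mer was present in 1.56% of 3′-UTRs and 4.34% of coding regions. The single 6mer match lay at bases 234 to 239 of the 502-base 3′-UTR of *Irf3*, shown with the match in capitals.
Irf3 3′-UTR: cacacattgtccCTACGTggagcaagggac
A 6mer match was present in 6.78% of all 3′-UTRs searched, and in none of the members' coding regions against 16.3% of all coding regions. Sites with mismatches or wobble pairs were not searched.

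*Zbp1*, *Irf7* and *Dhx58* were at least 2-fold higher in the mimic library, no member was 2-fold lower, and the other 7 differed by less than 2-fold. *Zbp1* was 5.88-fold higher, *Irf7* 3.13-fold and *Dhx58* 2.21-fold. *Tbk1* and *Mavs*, the kinase and the adaptor between sensors and transcription factors, had the lowest ratios, at 0.711 and 0.735 of the scramble level. Of the 12186 genes with at least 20 reads over both libraries, 3.96% were at least 2-fold higher in the mimic library and 3.08% at least 2-fold lower, against 3 and 0 of the 10 members. All 10 members passed this minimum. The median log2 ratio of mimic to scramble was 0.31 over the members and 0.00 over all these genes, and 7 of 10 members had a ratio above 0, against 49.9% of all genes. For 9 members the 95% interval for counting error left out 0, which was also true of 64.0% of all genes at this depth.

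**Figure D1:**
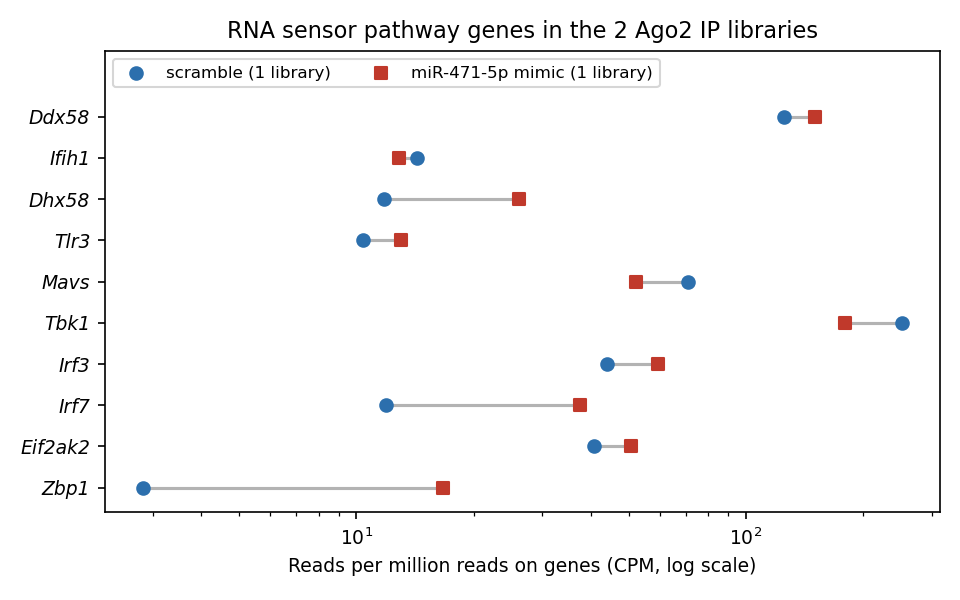
Level of each of the 10 genes in the scramble library (circles) and the miR-471-5p mimic library (squares), as reads per 1000000 reads on genes (CPM) on a log scale, with 1 library per group and therefore no error bar. *Zbp1* moves furthest, from 2.83 to 16.7 CPM, and *Tbk1*, *Mavs* and *Ifih1* are the 3 genes whose square lies to the left of the circle.

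The cytosolic helicases did not move as a group. RIG-I (*Ddx58*), which recognises short RNA with 5′ triphosphate ends, had 2793 reads with mimic and 2340 with scramble. This gave a log2 ratio of 0.25, with a 95% interval of 0.17 to 0.33 (exact, by the Clopper-Pearson method, from the fraction of its reads that came from the mimic library; like all intervals here it covers counting error only). MDA5 (*Ifih1*), which prefers long double-stranded RNA, had 241 reads with mimic and 267 with scramble, a log2 ratio of -0.15 (-0.41 to 0.11). The counts of *Ifih1* were thus not distinguishable between the libraries at this depth. LGP2 (*Dhx58*), which lacks the signalling domains of the other helicases, had 488 and 221 reads. Its log2 ratio was 1.14 (0.91 to 1.38), and the lower end of this interval lay below 2-fold. Within the summed reads of the 3 helicases, a comparison that needs no scaling between libraries, *Dhx58* took 13.9% with mimic (12.7 to 15.0%) and 7.81% with scramble (6.85 to 8.87%). *Ddx58* supplied most of these reads in both libraries, 79.3% with mimic and 82.7% with scramble.

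TLR3, the endosomal receptor, was covered by few reads. *Tlr3* had 243 reads with mimic and 195 with scramble, and its log2 ratio was 0.32 (0.04 to 0.60). The mimic library was higher, with an interval that came close to 0.

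The members that relay the signal were lower with mimic. *Mavs*, the mitochondrial adaptor of RIG-I and MDA5, had 975 reads with mimic and 1326 with scramble, a log2 ratio of -0.44 (-0.57 to -0.32). *Tbk1*, the kinase that activates IRF3 and IRF7, had the most reads of the 10 genes in both libraries, 3340 with mimic and 4695 with scramble. Its log2 ratio was -0.49 (-0.56 to -0.43), at percentile 12.5 of all genes. Of the summed reads of the 10 genes, 11142 with mimic and 10903 with scramble, *Tbk1* made up between 29.1 and 30.8% with mimic and between 42.1 and 44.0% with scramble (exact intervals).

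The transcription factors differed from each other. IRF3 is present in most resting cells, whereas IRF7 is itself an interferon-inducible gene in many cell types. *Irf3*, the gene with the 6mer match, had 1111 reads with mimic and 823 with scramble, a log2 ratio of 0.43 (0.30 to 0.56). *Irf7* had 696 and 222 reads, a log2 ratio of 1.65 (1.43 to 1.87), at percentile 98.7 of all genes. The intervals of the pair did not overlap. Of the reads on both factors, *Irf7* took 38.5% in the mimic library (36.3 to 40.8%) and 21.2% in the scramble library (18.8 to 23.9%).

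PKR and ZBP1 act beside the MAVS pathway. *Eif2ak2*, which encodes PKR, a kinase that blocks translation when bound to double-stranded RNA, had 943 reads with mimic and 761 with scramble. Its log2 ratio was 0.31 (0.17 to 0.45). *Zbp1*, which encodes a sensor of left-handed Z-form nucleic acids that can start necroptosis, had 312 and 53 reads. Its log2 ratio of 2.56 (2.13 to 3.01) was the highest of the 10 genes and lay at percentile 99.7 of all genes, although the 53 reads of the scramble library leave its size less precise than that of *Irf7*.

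**Figure D2:**
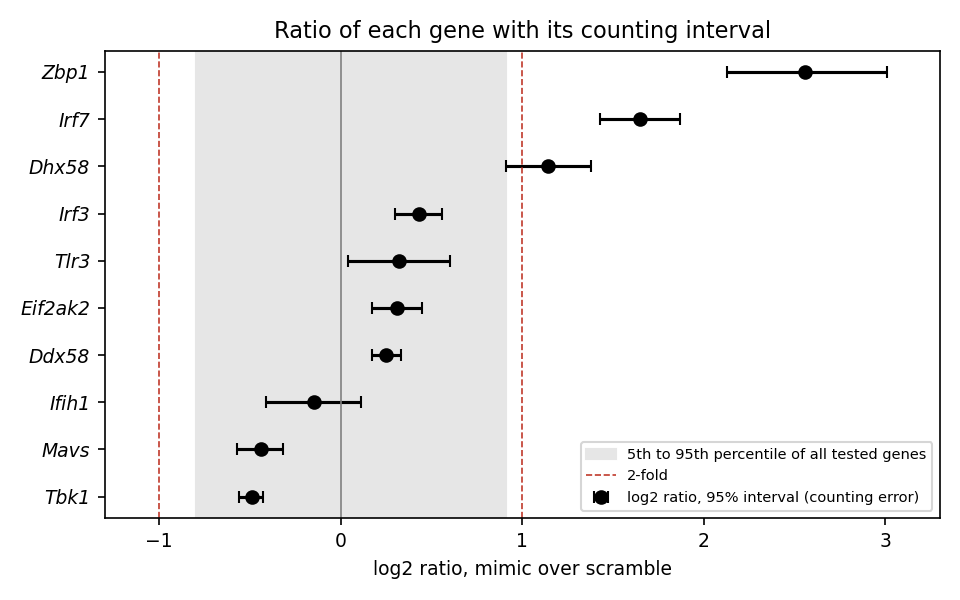
Log2 ratio of mimic to scramble for each gene (points) with its 95% interval for counting error (bars), ordered by ratio, with 1 library per group. The shaded band runs from -0.80 to 0.91, the 5th and 95th percentiles of all 12186 genes, and dashed lines mark 2-fold; *Zbp1*, *Irf7* and *Dhx58* lie to the right of the band and the other 7 genes within it.

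Levels between genes were compared as reads per 1000000 reads on genes divided by the length of the longest annotated transcript in kilobases (RPKM). In the scramble library *Tbk1* was highest at 82.9 RPKM, followed by *Ddx58* at 32.3, *Mavs* at 23.2, *Irf3* at 21.6 and *Eif2ak2* at 9.43. The lower end of the order was *Dhx58* at 4.90, *Irf7* at 3.66, *Ifih1* at 2.61, *Tlr3* at 2.36 and *Zbp1* at 0.852. The median over all genes was 10.3 RPKM in each library, and with scramble *Tbk1*, *Ddx58*, *Mavs* and *Irf3* lay above it and the other 6 below. Exact counting intervals overlapped for the neighbours *Mavs* (21.9 to 24.5) and *Irf3* (20.2 to 23.2) and for *Ifih1* (2.30 to 2.94) and *Tlr3* (2.04 to 2.72), whose order is therefore not settled.

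In the mimic library the order differed below the top pair. *Tbk1* (59.3 RPKM) and *Ddx58* (38.7) stayed highest, and *Irf3* (29.4) stood before *Mavs* (17.1). *Eif2ak2* (11.7), *Irf7* (11.5) and *Dhx58* (10.9) had overlapping intervals, with values above the median of all genes, 10.3. The interval of *Dhx58* (9.92 to 11.9) included that median. *Zbp1*, the lowest member in the scramble library, reached 5.04 RPKM with mimic, before *Tlr3* at 2.96 and *Ifih1* at 2.37, whose intervals overlapped. The longest transcripts of *Irf7* and *Zbp1* exceed their longest protein-coding ones, on which their levels were 16.7 and 8.42 RPKM with mimic and 5.30 and 1.42 with scramble. On that length *Irf7* stood between *Mavs* and *Eif2ak2* with mimic, inside the interval of *Mavs* (16.1 to 18.2). With scramble it stood before *Dhx58*, inside the interval of *Dhx58* (4.27 to 5.58).

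The ratio of all genes fell with transcript length, from a median log2 ratio of 0.43 in the shortest of 10 equal groups of genes to -0.25 in the longest. The members' longest annotated transcripts ran from 2031 bases (*Irf3*) to 5470 bases (*Ifih1*), in groups whose medians lay between 0.11 and -0.21. After subtraction of a linear and quadratic trend with length and GC content, which explained 14.6% of the variance over 12087 genes, *Zbp1* stood at 2.56, *Irf7* at 1.60 and *Dhx58* at 1.01. *Tbk1* and *Mavs* then stood at -0.48 and -0.50, and *Ifih1* moved from -0.15 to 0.07. The members' median became 0.39, and the same 3 genes were past 2-fold. The trend used 3240 bases for *Irf7* and 3325 for *Zbp1*. Their longest protein-coding transcripts have 2237 and 1989 bases, in length groups with medians of 0.11 and 0.23. The subtraction was not repeated on those lengths.

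**Figure D3:**
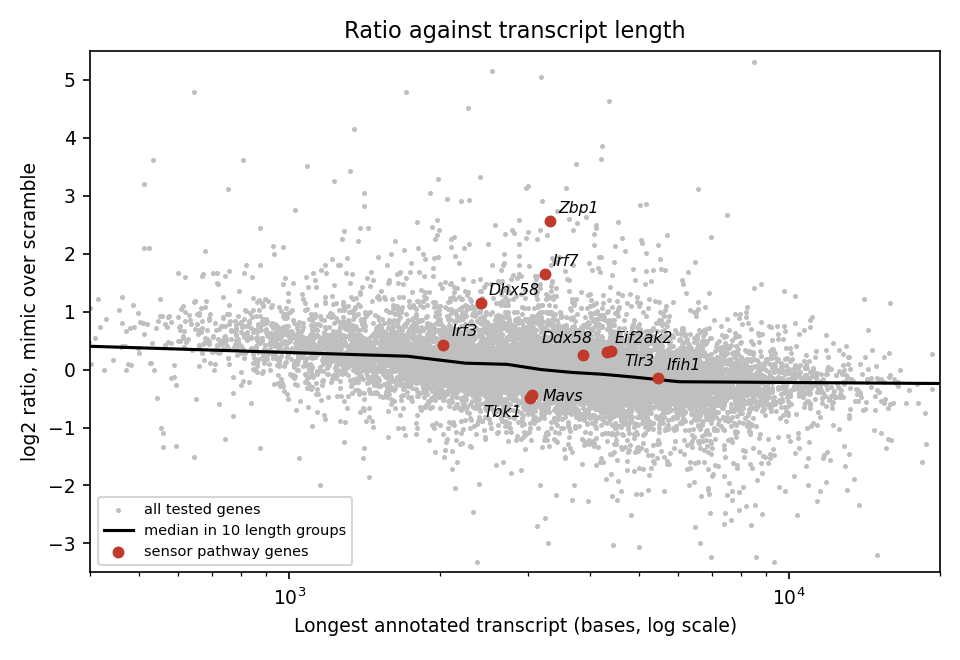
Log2 ratio of mimic to scramble against the longest annotated transcript (bases, log scale) for all genes with at least 20 reads (grey), the 10 sensor pathway genes (red) and the median of 10 length groups (line); 29 genes outside 400 to 20000 bases are not drawn. *Zbp1*, *Irf7* and *Dhx58* stand above the bulk of genes of their length, and *Mavs* and *Tbk1*, of 3057 and 3024 bases, lie on top of each other below the line.

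Genes around these members were taken from 7 lists ordered by role, with 88 genes, of which 73 had at least 20 reads. Of the 73, 5 were at least 2-fold higher with mimic (6.85%, against 3.96% of all genes). A further 1 was at least 2-fold lower (1.37%, against 3.08% of all genes), and the median log2 ratio was 0.03. Among 22 other RNA sensors and regulators of sensors the median was 0.01. *Cd14*, a co-receptor of TLRs, had 81 reads with mimic and 26 with scramble, a log2 ratio of 1.64 (0.99 to 2.34). *Rnf125*, a ubiquitin ligase that targets RIG-I, had 9 and 26 reads, a log2 ratio of -1.53 that is poorly determined (-2.81 to -0.39). The helicase *Ddx3x*, with the most reads of the other RNA-binding sensors, had 5888 and 5802. Among regulators of RIG-I and MDA5, *Cyld*, a deubiquitinase, had the most reads, 4572 and 5990, and its log2 ratio was -0.39 (-0.45 to -0.33). Its transcript is long, at 8022 bases, and subtraction of the length and GC trend left -0.04. In the endosomal receptor pathway, *Ticam1*, the adaptor of TLR3, had the most reads, 1214 and 992, and its log2 ratio was 0.29. *Tlr8* had 0 reads in both libraries.

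The partners of TBK1 had unequal ratios. *Tbkbp1*, a TBK1-binding adaptor, was the only 1 of 14 kinase and adaptor genes past 2-fold (7.14%, against 3.96% of all genes higher and 3.08% lower). It had 731 reads with mimic and 270 with scramble, a log2 ratio of 1.44 (1.23 to 1.64). The related adaptors *Tank* and *Azi2*, named here after their values had been seen, had log2 ratios of -0.78 (-0.91 to -0.66) and -0.34 (-0.49 to -0.19), and *Ikbke*, likewise named afterwards, which encodes the kinase closest to TBK1, had -0.45 (-0.62 to -0.28). The median of the 14 genes was -0.22. With the length and GC trend subtracted, this median was -0.06. *Tbkbp1* then stood at 1.33, *Tank* at -0.79, *Azi2* at -0.28 and *Ikbke* at -0.25. *Tomm70a*, the mitochondrial import receptor that binds MAVS, had the most reads of the adaptors, 5923 and 8283, and *Chuk* the most of the other kinases, 2219 and 2710.

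None of the 12 measured genes of the IRF family and NF-κB was past 2-fold. At the shares of all genes, 3.96% higher and 3.08% lower, a list this short or shorter can hold none. *Irf1*, a factor induced by interferon, had 11876 reads with mimic and 9514 with scramble, a log2 ratio of 0.32, and the NF-κB subunit gene *Nfkb2* had 6946 and 4847, a log2 ratio of 0.52. *Irf8* had 0 reads in both. The 12 genes around PKR and its substrate eIF2α, and the 4 genes of the ZBP1 pathway other than *Zbp1*, also held none past 2-fold, with medians of -0.08 and 0.24. *Stau1* and *Ppp1r15b* had the most reads around PKR, with log2 ratios of -0.05 and 0.31, and *Cflar*, an inhibitor of caspase-8, had -0.02 in the ZBP1 pathway. Of 6 measured genes of DNA sensing, *Ifi204* alone was past 2-fold (16.7%, against 3.96% of all genes at least 2-fold higher). It had 1770 and 846 reads (log2 ratio 1.06, interval 0.95 to 1.18). *Ifi204* belongs to a gene cluster with close copies, and its count is uncertain for that reason. *Samhd1*, with the most reads of these genes, had 2166 and 2558. *Aim2* had 0 reads in both libraries.

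The products of this pathway divided into interferons without reads and chemokines with more reads in the mimic library. *Ifna1*, *Ifna2*, *Ifna4*, *Ifna5*, *Ifnl2* and *Ifnl3* had 0 reads in both libraries and *Ifnb1* had 0 with mimic and 1 with scramble. A count of 0 allows up to 3 reads, or 0.161 CPM with mimic and 0.160 with scramble, and reads with several alignments were left out of the counts, which matters for the similar *Ifna* genes. *Ccl5*, a chemokine that IRF3 and NF-κB induce, had 982 reads with mimic and 319 with scramble, a log2 ratio of 1.62 (1.44 to 1.81). *Cxcl10* had 668 and 226 reads, a log2 ratio of 1.56 (1.34 to 1.79). With the length and GC trend subtracted, *Ccl5*, whose transcript has 668 bases, stood at 1.08 and *Cxcl10* at 1.46. *Il6* and *Tnf* were also named after their values had been seen. *Il6* had 370 and 290 reads, a log2 ratio of 0.35 (0.13 to 0.58), and *Tnf* had 1 and 0.

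**Figure D4:**
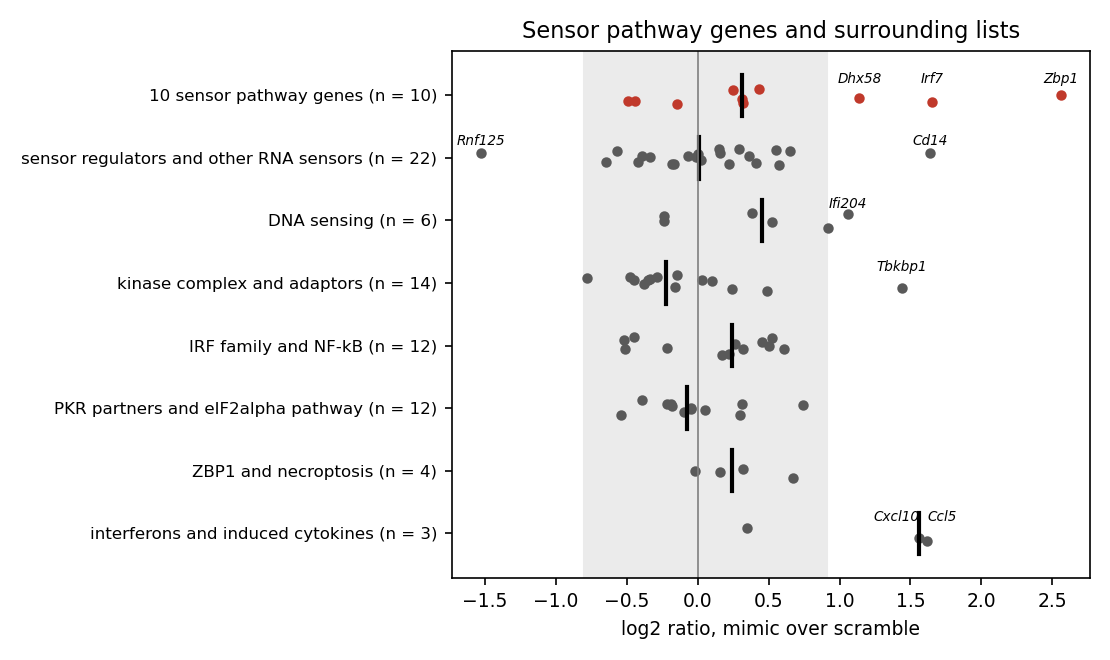
Log2 ratio of mimic to scramble for each gene with at least 20 reads (points) in the 10 sensor pathway genes (red) and 7 lists around them (grey), with the median of each list as a bar, the 5th to 95th percentile of all genes as a shaded band, and names for genes past 2-fold. Ratios are drawn before subtraction of the length and GC trend. The 14 kinase and adaptor genes have the lowest median, -0.22, and *Ccl5* and *Cxcl10* lie together at 1.62 and 1.56. With the trend subtracted these values were -0.06, 1.08 and 1.46.

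Promoters of interferon-inducible genes often carry an interferon-stimulated response element (ISRE), so the members' promoters were searched for its core, a pair of GAAA runs with any 2 bases between them, on both strands. Windows of 300 bases that span the annotated start (RefSeq, GRCm38.p6) were read for 8 of the 10 genes; *Dhx58* and *Zbp1* had no entry. The core was present in *Ddx58*, *Ifih1* and *Eif2ak2*, against 3.99% of all 27025 genes with a window. The 3 matches are shown with the core in capitals, on the strand of the gene; that of *Ddx58* reads as the core on the other strand.
Ddx58, chr4:40239804-40239833, minus strand: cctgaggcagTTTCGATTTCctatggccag
Ifih1, chr2:62646206-62646235, minus strand: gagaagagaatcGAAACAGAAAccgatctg
Eif2ak2, chr17:78882535-78882564, minus strand: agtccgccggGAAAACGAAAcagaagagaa
All 3 lay just after the annotated start, between 2 and 41 bases from it. The log2 ratios of these genes were 0.25, -0.15 and 0.31, below 2-fold, and these letters were not in the window of *Irf7*. Of the 8 members with a window, 3 thus held an ISRE core, and none of those 3 was past 2-fold. *Irf7* was the only member past 2-fold that had a window, so these windows cannot show whether the core goes with higher ratios. Another promoter motif, GAS (TTC and GAA with any 3 bases between them), was searched in the same windows on both strands. It was present in 1 of the 8 members, *Eif2ak2*, against 9.55% of all genes with a window.

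Some exons of the members overlap genes on the opposite strand, and the strand setting of the counts is not given in the sources used here. The overlap was 88 bases, or 2.56% of exon bases, between *Irf3* and *Bcl2l12* (174 reads with mimic, 149 with scramble), and 45 bases, or 1.19%, between *Irf7* and *Phrf1* (1200 and 1102 reads). Both neighbours had close counts in the 2 libraries. *Dhx58*, *Tlr3* and *Eif2ak2* overlap non-coding genes that are not among the counted symbols, over at most 7.32% of their exon bases.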

How the data were processed

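Ago2-bound RNA from 2 TM4 libraries, 1 per group, was analysed. The deposited values are raw read counts, not normalized by the authors, for 22609 gene symbols, with 5 summary rows that were left out. The submitters' processing notes name CASAVA 1.8.2, TopHat2 2.0.8b, HTSeq and mm9. The annotation is not given in the sources used here. Reads with several alignments carry no gene, so genes with close copies are undercounted.

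Scaling between the libraries used the TMM factors of edgeR 4.0.16 under R 4.3.3. Log2 ratios were computed for the 12186 genes with at least 20 reads over both libraries. With 1 library per group the quasi-likelihood test could not be fitted, and no p-value is given. Intervals of 95% are exact (scipy 1.17.1) and cover counting error only. The ratio and interval functions were tested on simulated counts with counting error only, which cannot show how they behave with spread between libraries. GENCODE M21 (GRCm38) gave lengths, GC content and seed matches by symbol, and no coordinates of the mm9 counts were converted. Members and lists were chosen with earlier results of these data known. Named from the lists were genes past 2-fold, the gene with the most reads in each role and genes at 0 in both libraries, and the text says where a further gene was named after its values were seen. Alternatives were the size factors of DESeq2 1.42.0, total counts or the upper quartile, read minima of 1 and 200, a log2 ratio of 0.5, the whole interval past 2-fold, and removal of the length and GC trend. A protein comparison was not made because no protein table was used here.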

Additional observations from a re-analysis of the deposited data

Results flagged for a closer look

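The share of entries aligned to more than one place, which lies outside the counts per gene, was 39.8% in the mimic library (exact 95% interval 39.83 to 39.86%) and 35.6% in the scramble library (35.59 to 35.62%), and was noted because it was higher with mimic. The intervals treat every entry as independent, which need not hold where a read gives several entries, and they leave out any spread between libraries. Which genes these reads belong to, and their part in the ratios of the 10 sensor pathway genes, was not tested.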

How the results depend on the processing

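Over 114 alternative values, 94 stayed within the counting interval, within 1.5 times of the count or, for the members' median, within a small fixed shift. The 94 include levels that could not change, for genes whose longest transcript is also the longest protein-coding one. They also include the median and the counts of the members under the read minima, which could not change either. *Dhx58*, *Irf7* and *Zbp1* were the members counted as higher under 7 of 8 alternatives, and requiring the whole interval past 2-fold left *Irf7* and *Zbp1*. The read minima could not change this set, because every member had more than 200 reads over both libraries. The scaling that differed most, by the upper quartile, had a log2 offset of -0.0181 from TMM. Offsets of this size could not change the set either, because *Dhx58*, the member nearest to 2-fold, had a log2 ratio of 1.14. Removal of the length and GC trend and the lower log2 threshold could have changed the set, which stayed the same.

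With the length and GC trend removed, *Ddx58* stood at 0.34 and *Irf3* at 0.22. Genes at least 2-fold higher and lower over the whole table numbered 483 and 375, against 866 and 878 with a minimum of 1 read, 236 and 191 with 200 reads, 1816 and 1483 at a log2 ratio of 0.5, and 214 and 149 with the whole interval past 2-fold. In the lists around the members, 5 were higher and 1 lower, against 15 and 7 at a log2 ratio of 0.5 and 3 and 0 with the whole interval. With a minimum of 1 read 2 were lower, and with 200 reads 0. The read minima change the number of genes admitted, and the other 2 settings change the threshold over the same 12186 genes. Levels on the longest protein-coding transcript, an alternative chosen after seeing the data, were 16.7 and 5.30 RPKM for *Irf7* and 8.42 and 1.42 for *Zbp1* (mimic and scramble).

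No paired analysis was possible because each group has 1 library. Depth limits *Zbp1* (53 scramble reads), *Tlr3* and *Ifih1* most, and the spread between replicates is unknown.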
